A study of Mus musculus with 2 samples.

Results

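Cxcr3 is the chemokine receptor through which many activated T cells and natural killer (NK) cells are drawn into inflamed tissue, and Cxcl9, Cxcl10 and Cxcl11 are the genes of its ligands. All 4 listed genes were looked up by symbol in the deposited feature lists of 32285 genes, and 3 of the 4 had a row. Cxcl11 had none and is not analysed here; in the mm10 annotation (GENCODE vM21) it is a polymorphic pseudogene. The libraries came from CT26 tumours in BALB/c mice, an inbred strain in which this colon carcinoma cell line grows after transplantation. One library had the genotype mock and the other PTIR1-expressing. The labels give no other allele, agent, age or number of animals. With 1 library per group no replicate and no test were possible. Intervals, in parentheses throughout, are at 95% and reflect counting alone, not the spread between tumours.

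Interferon gamma induces Cxcl9, Cxcl10 and Cxcl11, most strongly in macrophages, dendritic cells and stromal cells. Cxcl10 is in addition switched on by type I interferon and by NF-kB, whereas Cxcl9 depends more closely on interferon gamma. The receptor is coupled to inhibitory G proteins, and its expression on lymphocytes is promoted by the T-box factors encoded by Tbx21 and Eomes. In tumours the ligands are known for guiding T and NK cells toward the cells that secrete them.

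The 3 ligand genes lie side by side on the minus strand of mouse chromosome 5, in 44.1 kb. In mm10, Cxcl9 (ENSMUSG00000029417) spans chr5:92321347-92328079, Cxcl10 (ENSMUSG00000034855) spans chr5:92346638-92348889 and Cxcl11 (ENSMUSG00000060183) spans chr5:92359544-92365485. Art3, on the plus strand, overlaps Cxcl10 and Cxcl11, and had 9 UMIs in kept mock cells and 14 in kept PTIR1 cells. Cxcr3 (ENSMUSG00000050232) lies at chrX:101731535-101734269, also on the minus strand. The sequence before the start of each measured ligand gene is shown because the ligands moved to different degrees between the libraries. These are the 250 bases before the start in RefSeq (GRCm38.p6), read 5′ to 3′ on the minus strand, from chr5:92328080-92328329 for Cxcl9 and chr5:92348890-92349139 for Cxcl10. Capitals mark matches, on either strand, to the interferon-stimulated response element (ISRE, GAAA, any 2 bases, GAAA), the gamma-activated site (GAS, TTCNNNGAA) or the kappaB motif. The reference strain is C57BL/6J, not BALB/c.
Cxcl9: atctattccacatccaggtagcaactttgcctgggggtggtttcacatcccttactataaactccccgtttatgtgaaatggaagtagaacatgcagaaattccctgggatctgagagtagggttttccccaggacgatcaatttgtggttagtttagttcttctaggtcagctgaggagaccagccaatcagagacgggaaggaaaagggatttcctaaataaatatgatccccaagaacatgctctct
Cxcl10: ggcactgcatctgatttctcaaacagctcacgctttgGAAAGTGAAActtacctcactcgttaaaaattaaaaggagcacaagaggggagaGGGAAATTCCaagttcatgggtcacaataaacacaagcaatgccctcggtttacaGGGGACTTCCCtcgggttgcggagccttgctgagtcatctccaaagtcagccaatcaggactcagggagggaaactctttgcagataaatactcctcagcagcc

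The Cxcl10 window held an ISRE 213 to 204 bases before the start, a kappaB motif 159 to 150 bases before it, and a pair of overlapping kappaB matches at 104 to 95 and 103 to 94 bases. The Cxcl9 window held no match to these letters. Among 32851 RefSeq promoter windows of the same length, 2.98% held an ISRE match, 7.02% a GAS match and 7.25% a kappaB match. A match is a description of letters and shows no binding.

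The mock library held 10833 barcodes and 95166611 UMIs (unique molecular identifiers, 1 for each captured transcript), and the PTIR1 library 9006 barcodes and 98540561 UMIs. After filters on genes, mitochondrial share and doublets, 8632 mock cells with a median of 3169.5 UMIs and 7480 PTIR1 cells with a median of 6924.5 UMIs were kept. The libraries shared 30 barcodes, 18 of them kept. PTIR1 had no row of its own, so the labels could not be checked by it. Cells were clustered without the ligand and receptor genes, and 28 of 42 clusters were named by fixed markers. The labels call the source tumour-infiltrating lymphocytes, but macrophage or monocyte-like, dendritic, neutrophil, mast cell, fibroblast and CT26 tumour cell-like clusters were present as well. Low-depth clusters without a name held 3582 mock and 1714 PTIR1 cells. Clusters with markers of more than 1 lineage, called mixed-lineage below, held 290 and 890 cells. Doublet removal was unequal, at 696 mock and 87 PTIR1 cells. Its part in the size of the mixed-lineage clusters, and in the ligand and receptor shares they held, was not tested. Over a whole library, fewer cells of a type and less RNA per cell cannot be told apart.

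Over all kept cells, Cxcl9 stood at 287 CPM (283 to 291; in CPM, the usual scaling of a gene's UMIs to those of all genes in the same cells) in the mock library and at 57.3 (55.8 to 58.9) in the PTIR1 library. It was thus 5.01-fold lower (4.86 to 5.16) in the PTIR1 library, on 24005 and 5262 UMIs. Cxcl10 stood at 319 CPM (315 to 323) and 173 CPM (170.1 to 175.5), which is 1.84-fold lower (1.81 to 1.88). Cxcr3 stood at 7.83 CPM (7.24 to 8.45) and 8.17 CPM (7.59 to 8.77), a ratio of 1.04 (0.938 to 1.16). The ligands were therefore lower in the PTIR1 library, Cxcl9 by the larger factor, while the interval of the receptor's ratio included 1. Of the neighbouring genes, Naaa had a ratio of 0.627, and Nup54, Sdad1 and Scarb2 had ratios between 0.847 and 1.07. Ppef2 had a ratio of 0.288 (0.094 to 0.749), on 19 and 6 UMIs only.

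**Figure D1:**
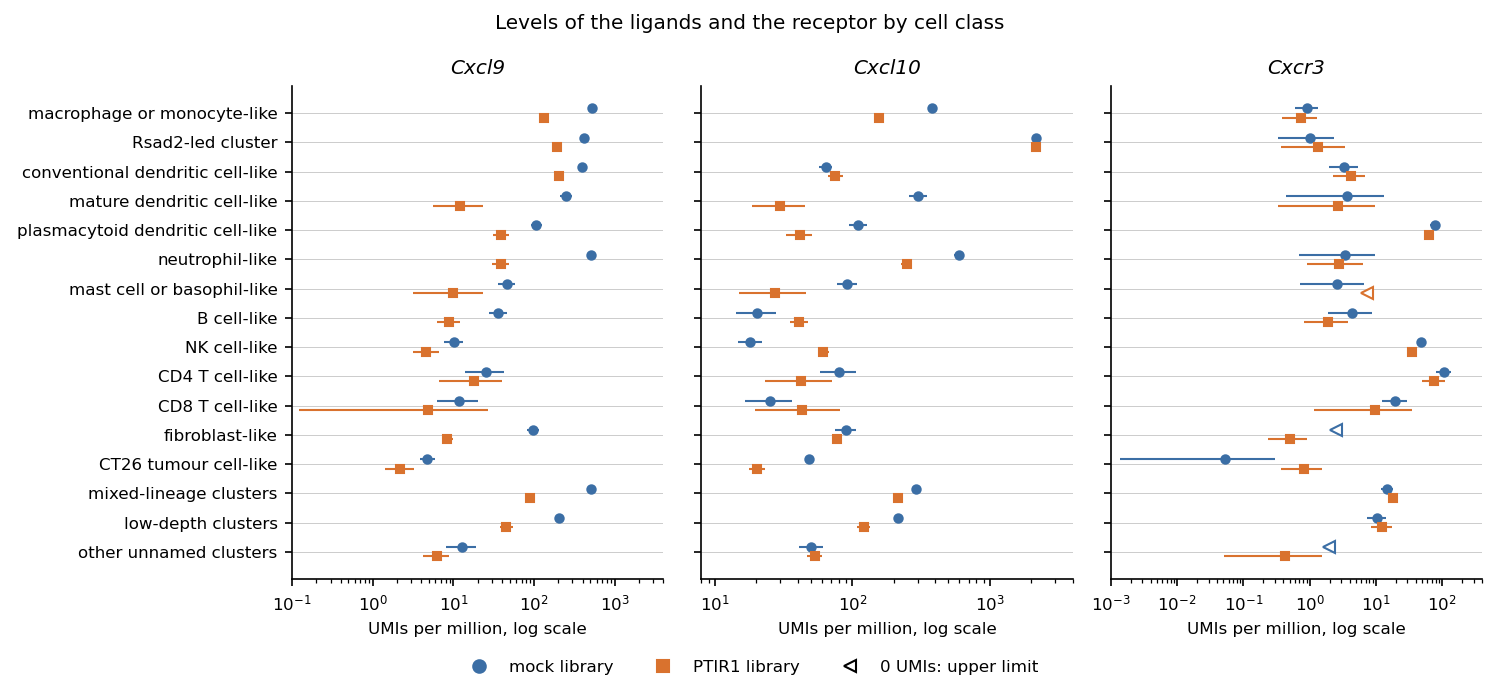
Levels of Cxcl9, Cxcl10 and Cxcr3 (CPM, log axis) in each cell class, with 1 point for each library and bars for the 95% counting interval; open triangles are upper limits where no UMI was found. Cxcl9 lay lower in the PTIR1 library in each class with enough UMIs, B cell-like cells included. Cxcl10 lay at the same level in the Rsad2-led cluster (2180 and 2175), and Cxcr3 was highest in CD4 T cell-like, plasmacytoid dendritic cell-like and NK cell-like cells.

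Macrophage or monocyte-like cells held the highest share of Cxcl9 UMIs in both libraries, and more than all other units together only in the mock library. In these cells it stood at 525 CPM (516 to 533) in 1891 mock cells and at 132 CPM (127 to 138) in 1015 PTIR1 cells. It was 3.97-fold lower (3.79 to 4.16) in the PTIR1 library, where 3.42% of 11023 measured genes of this class were lower by 1.5-fold or more and 3.89% higher by as much. The class accounted for 61.2% of mock Cxcl9 UMIs (60.6 to 61.8%) and for 41.0% of those in the PTIR1 library (39.6 to 42.3%), while it had 33.5% and 17.8% of all UMIs. Conventional dendritic cell-like cells, which present antigen to T cells, held a further 8.28% and 12.9%. Their Cxcl9 level was 389.6 CPM (373 to 407) in 272 mock cells and 202 CPM (187 to 218) in 185 PTIR1 cells, 1.93-fold lower (1.77 to 2.11), against 4.75% of genes lower and 4.98% higher by 1.5-fold. In the PTIR1 library this level was above that of macrophage or monocyte-like cells. Mixed-lineage clusters held 13.5% and 24.0% of Cxcl9, and a cluster led by Rsad2, described next, held 8.62% and 11.1%.

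**Figure D2:**
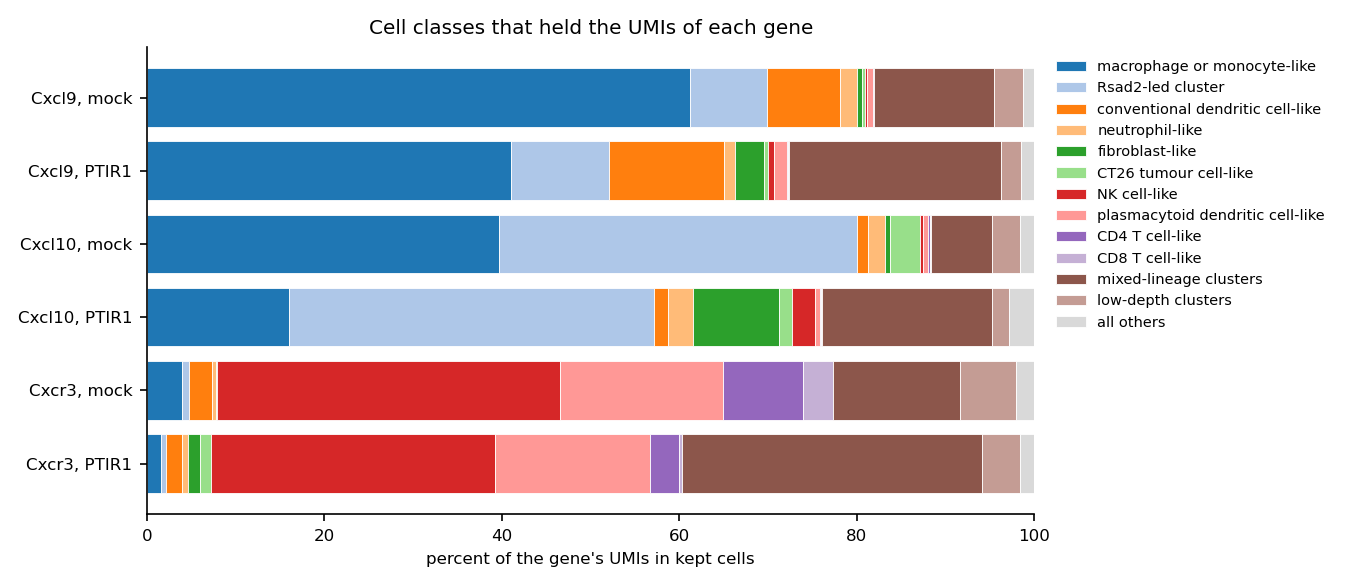
Share of the UMIs of each gene (percent, horizontal axis) held by each cell class in each library. Macrophage or monocyte-like cells had the highest share of Cxcl9 in both libraries (61.2% mock, 41.0% PTIR1) and the Rsad2-led cluster that of Cxcl10 (40.3% and 41.0%), followed by macrophage or monocyte-like cells in the mock library (39.7%, PTIR1 16.1%) and by mixed-lineage clusters in the PTIR1 library (19.2%, mock 6.84%). Cxcr3 came mostly from NK cell-like, plasmacytoid dendritic cell-like and mixed-lineage clusters.

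Cxcl10 had another main source. A cluster of 359 mock and 219 PTIR1 cells, led by the antiviral genes Rsad2, Ifit1bl1, Cmpk2 and Ifit2, accounted for 40.3% (39.7 to 40.9%) of mock Cxcl10 UMIs and 41.0% (40.3 to 41.8%) of PTIR1 ones. It made up 4.16% and 2.93% of the kept cells, and 5.89% and 3.26% of their UMIs. Its 11 macrophage markers summed to 6496 and 6145 CPM and its 6 monocyte markers to 6797 and 6630 CPM, against 7254 and 6902 CPM and 3381 and 3371 CPM in macrophage or monocyte-like cells. By the limits used for naming, 4 of the monocyte markers (Ly6c2, Vcan, Plac8 and F13a1) passed. It received no class name because Kdr, a marker on the endothelial list, was among its 10 top genes and no marker of its own class was. Cxcl10 was itself among the genes that lead it, so its high level there is a description. Between the libraries, Cxcl10 in this cluster stood at 2180 CPM (2139 to 2221) and 2175 CPM (2123 to 2229), a ratio of 0.998 (0.968 to 1.03). Both libraries were clustered together, so cells of either library were placed here by their likeness in the antiviral genes. The part of this choice of cells in the level ratio was not tested. Cxcl9 in the same cells went from 419.8 CPM (402 to 438) to 195 CPM (179 to 211), 2.16-fold lower (1.97 to 2.37), where 4.97% of genes were lower and 4.08% higher by 1.5-fold or more.

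In macrophage or monocyte-like cells Cxcl10 stood at 378 CPM (371 to 385) and 156 CPM (150.1 to 162.3), 2.42-fold lower (2.32 to 2.53). This value depended on which cells were counted in the class. With the Rsad2-led cluster counted in, the log2 ratio was -0.47 instead of -1.28, and with a mitochondrial limit of 20% in place of 10% it was -0.62. Single libraries clustered apart gave -0.49, direct marker gates -0.48, and coarser and finer clustering -0.15 and -0.36. With the Rsad2-led cluster counted in, the class accounted for 80.0% of mock and 57.1% of PTIR1 Cxcl10. For Cxcl9 the log2 ratio was -1.99, and over these same settings it stayed between -2.07 and -1.49.

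The ligands were concentrated in a few cells. In the mock library 243 of 1891 macrophage or monocyte-like cells had 10 or more Cxcl9 UMIs, and these held 93.7% of the Cxcl9 of the class. In the PTIR1 library 45 of 1015 such cells held 91.0%. For Cxcl10 the corresponding cells numbered 159 and 43 and held 89.2% and 81.6%. The highest single cells had 311 and 160 UMIs of Cxcl9, and 307 and 213 of Cxcl10.

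Within the class, 1 cluster held most of the Cxcl9 RNA in both libraries. It was led by Cxcl9, Calhm6, Ly6i and the interferon-induced genes Gbp2b, Batf2 and Gbp4, so its high level is again a description. Its 389 mock cells and 75 PTIR1 cells stood at 1816 and 1364 CPM for Cxcl9, 1.33-fold lower (1.26 to 1.41), and at 1336 and 1144 CPM for Cxcl10, 1.17-fold lower (1.10 to 1.24). It held 10911 of the 14690 Cxcl9 UMIs of the mock class and 1481 of 2156 of the PTIR1 class. For Cxcl10 these were 8026 of 10586 and 1242 of 2547 UMIs. The clusters were built from genes that differ between the libraries, so cell numbers are given as denominators and not as a result. The largest cluster of the class in the PTIR1 library was led by Cxcl14 and Nt5e, with 312 mock and 206 PTIR1 cells, and had the lowest Cxcl9 of the measured clusters, 26.6 and 4.87 CPM.

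In all 9 clusters of the class with enough UMIs Cxcl9 was lower in the PTIR1 library, by 1.33-fold to 20.03-fold. The cluster led by the complement genes C1qc, C1qa and C1qb went from 559 to 163 CPM, 3.43-fold lower (2.995 to 3.94). The cluster led by Ccl8, C1qb and Ccl12 went from 523 to 26.1 CPM, the latter on 2 UMIs in 24 cells. Monocyte-like cells led by Ace and Adgre4, in which all 6 monocyte markers passed, Ly6c2 and Ccr2 among them, went from 93.9 to 22.4 CPM. Cxcl10 did not move in 1 direction: it was 5.90-fold lower (4.56 to 7.75) in the Ace-led cluster, at 179 and 30.4 CPM, and 1.54-fold higher in the Cxcl14-led cluster, at 30.8 and 47.5 CPM. With the clusters weighed as in the mock library, the PTIR1 class stood at 335 CPM for Cxcl9, 1.57-fold below the mock value, and at 316 CPM for Cxcl10, 1.20-fold below it. The Cxcl9-led cluster made up 389 of 1891 mock and 75 of 1015 PTIR1 cells of the class, so its share moved with the result.

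**Figure D3:**
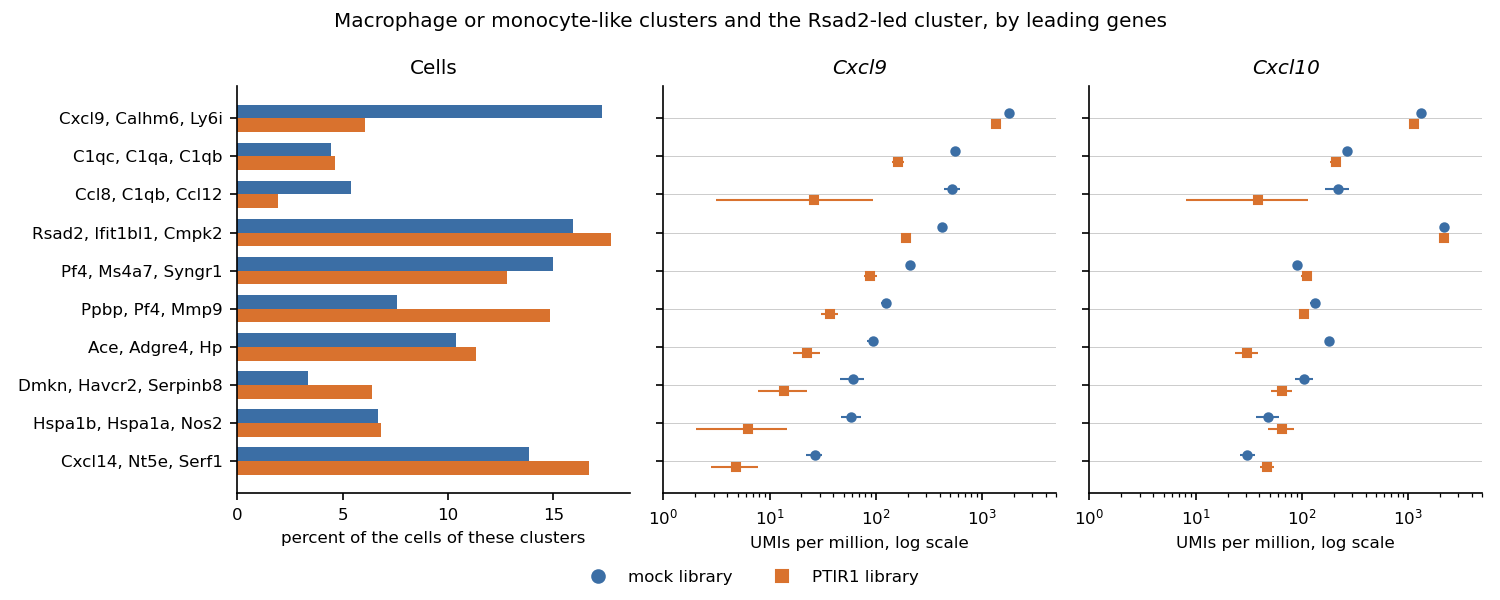
Clusters of macrophage or monocyte-like cells with at least 20 cells in each library, and the Rsad2-led cluster, named by their leading genes. The left panel gives the percent of the cells of these clusters, and the others the level of Cxcl9 and of Cxcl10 (CPM, log axis) with 95% counting intervals; Cxcl9 lay lower in the PTIR1 library in each cluster, and Cxcl10 was highest in the Rsad2-led cluster in both.

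Detection was compared after each cell was thinned to 1000 UMIs, with shallower cells left out, which kept 1867 of 1891 mock and 1003 of 1015 PTIR1 macrophage or monocyte-like cells. A Cxcl9 UMI was then found in 15.3% of mock (13.7 to 17.0%) and 4.79% of PTIR1 (3.55 to 6.30%) macrophage or monocyte-like cells, against 32.0% and 12.9% with all UMIs. In the Rsad2-led cluster the thinned shares were 15.3% and 8.22%, and in conventional dendritic cell-like cells 15.1% and 8.11%. B cell-like cells, taken as the class that should lack the ligands, had a Cxcl9 UMI in 3.47% and 0.907% of cells (12.8% and 3.69% with all UMIs), with median depths of 4241 and 4390 UMIs against 13350 and 13965 in the macrophage or monocyte-like class. The low-depth clusters, with medians of 844 and 1037 UMIs, had one in 17.7% and 3.59% of the 1217 and 920 cells deep enough, 2365 and 794 being left out (18.2% and 5.48% of all cells with all UMIs), at or near the share of the macrophage or monocyte-like class. No low-depth cell had more than 5 mock or 7 PTIR1 Cxcl9 UMIs. Cxcl10 was detected in 11.9% and 6.88% of macrophage or monocyte-like cells (33.2% and 23.9% with all UMIs) and in 41.2% and 44.7% of the Rsad2-led cells, against 3.23% and 2.20% of B cell-like cells. Low-depth cells had it in 15.6% and 12.1%, above the macrophage or monocyte-like class and below the Rsad2-led cluster.

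Cxcl9 and Cxcl10 overlapped in part within the same cells. Of 1867 thinned mock macrophage or monocyte-like cells, 205 had Cxcl9 only, 142 had Cxcl10 only and 81 had both. Of 1003 PTIR1 cells these numbers were 34, 55 and 14. Cxcl10 was found in 28.3% of mock and 29.2% of PTIR1 cells with Cxcl9, and in 8.98% and 5.76% of those without. In the Rsad2-led cluster most ligand-bearing cells had Cxcl10 only: 118 against 25 with Cxcl9 only and 30 with both in the mock library, and 86 against 6 and 12 in the PTIR1 library.

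Cells with Cxcl9 differed from the other cells of their class in genes of antigen presentation and interferon response. At 1000 UMIs per cell, 286 mock cells with a Cxcl9 UMI were set against 1581 without, and 48 PTIR1 cells against 955. Of 25 listed genes measured in both libraries, the ligands left out, 14 were at least 1.5-fold higher in the cells with Cxcl9 in both, and 1 was lower. Of all 7190 genes measured in the same cells, 5.23% were higher and 7.93% lower in both. Cd40, a co-stimulatory receptor of antigen-presenting cells, was 5.34-fold (3.06 to 9.30) and 7.96-fold (1.82 to 27.6) higher. Iigp1, an interferon-inducible GTPase, was 4.77-fold (3.47 to 6.56) and 16.8-fold (6.83 to 40.7) higher, and the class II gene H2-Ab1 3.38-fold (3.08 to 3.70) and 4.10-fold (3.21 to 5.20). The lower gene was Spp1, which encodes osteopontin, with ratios of 0.374 (0.335 to 0.416) and 0.478 (0.386 to 0.584). Arg1, the arginase of alternatively activated macrophages, had ratios of 0.381 and 0.684.

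Of the same 25 genes, 15 were at least 1.5-fold higher in cells with a Cxcl10 UMI in both libraries and none was lower in both, against 4.46% of all genes higher and 6.98% lower in both. Here 223 mock cells were set against 1644 and 69 PTIR1 cells against 934. The antiviral gene Ifit3 was 4.02-fold (1.81 to 8.49) and 5.21-fold (1.45 to 15.6) higher. Rsad2 was 3.27-fold (2.18 to 4.82) higher in the mock library and 2.051-fold (0.625 to 5.29) in the PTIR1 library, where the interval included 1. H2-Ab1 was 1.60-fold (1.42 to 1.79) and 1.72-fold (1.28 to 2.27) higher.

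**Figure D4:**
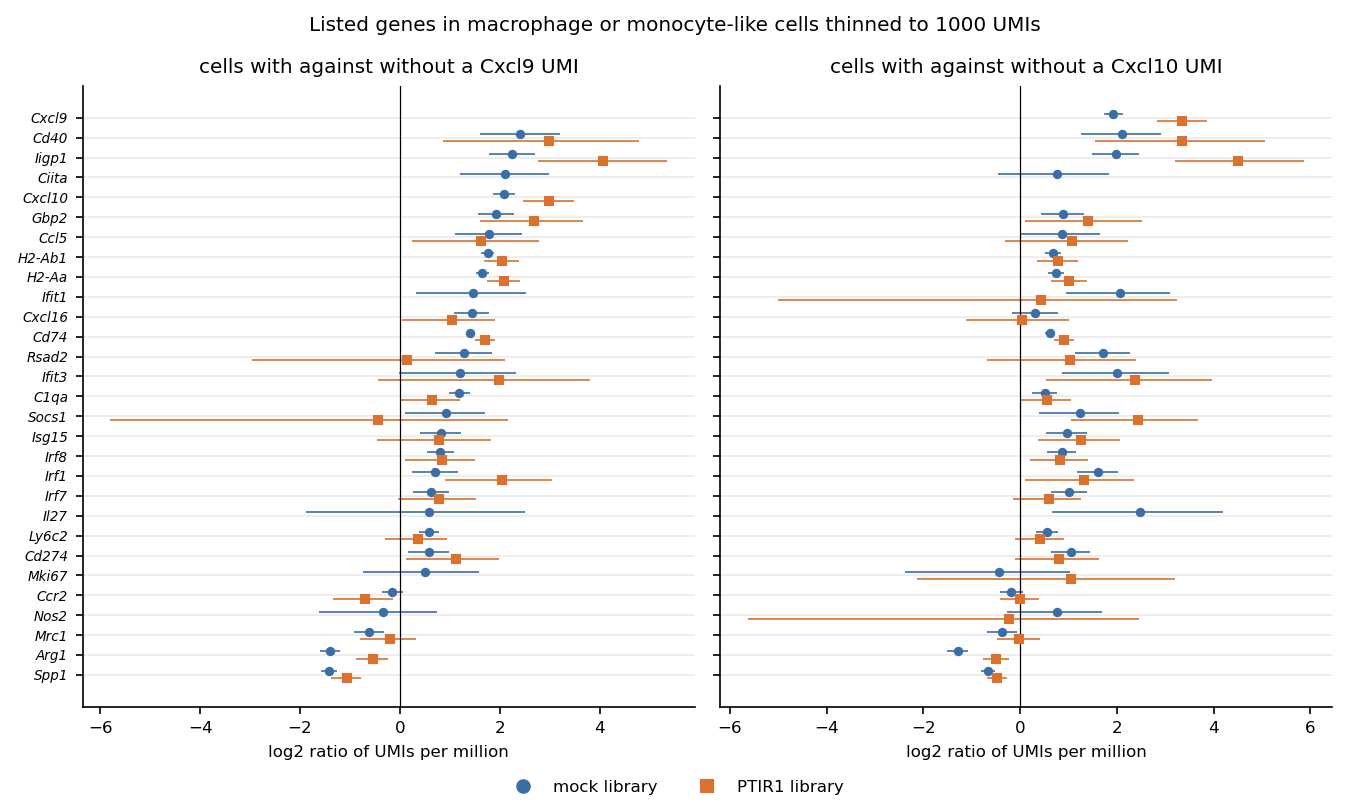
Log2 ratio of CPM between macrophage or monocyte-like cells with and without a Cxcl9 UMI (left) or a Cxcl10 UMI (right), for listed genes with enough UMIs, with 95% counting intervals and 1 marker shape per library. Cd40, Iigp1 and the class II genes lay right of 0 and Spp1 and Arg1 left of 0 in both libraries and both panels.

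Other classes held less ligand RNA, often in very few cells. Over 14 cell classes and unnamed units with at least 50 Cxcl9 UMIs, Cxcl9 was lower by 1.5-fold or more in the PTIR1 library in all 14. Among these were B cell-like cells, taken above as the class that should lack the ligands. Their Cxcl9 went from 36.2 to 8.86 CPM, 4.08-fold lower (2.69 to 6.28). NK cell-like (10.2 and 4.64 CPM), CT26 tumour cell-like (4.75 and 2.19) and the other clusters without a name lay below those levels. The part of RNA from outside the cells in these ratios was not tested. Cxcl10 was lower by 1.5-fold or more in 8 of 15 units, higher in 2 and between these limits in 5. Mixed-lineage clusters went from 513 to 89.2 CPM for Cxcl9 and from 289.9 to 215 CPM for Cxcl10, against 4.51% of genes lower and 5.85% higher by 1.5-fold. Low-depth clusters went from 204.5 to 45.4 CPM and from 215 to 121 CPM, against 6.48% lower and 7.31% higher. Mast cell or basophil-like cells went from 46.0 to 9.85 CPM and from 91.9 to 27.6 CPM, against 15.5% lower and 3.69% higher. The other clusters without a name had 12.7 and 6.20 CPM of Cxcl9 and 50.4 and 53.2 CPM of Cxcl10, against 5.52% lower and 5.08% higher.

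Neutrophil-like cells went from 503 CPM (457 to 551) to 38.4 CPM (29.9 to 48.6) for Cxcl9 and from 595 CPM (545 to 648) to 248 CPM (226 to 272) for Cxcl10. Cxcl9 was 13.1-fold lower (10.1 to 17.1) and Cxcl10 2.40-fold lower (2.11 to 2.72), against 8.41% of genes lower and 8.53% higher by 1.5-fold. In these cells 5 of 195 mock cells held 90.8% of Cxcl9, and their summed macrophage and monocyte markers stood at 8518 CPM against 5911 in the rest; the part of such RNA in the result was not tested. Under direct marker gates the log2 ratio of Cxcl10 was 0.04 instead of -1.26. Mature dendritic cell-like cells, which carry antigen to lymph nodes, were few, 46 and 55. They went from 252 to 12.2 CPM for Cxcl9, 20.6-fold lower (10.5 to 45.9), and from 303 to 29.9 CPM for Cxcl10, 10.1-fold lower (6.46 to 16.6), against 7.89% of genes lower and 7.37% higher. Cxcl9 rested on 139 mock and 9 PTIR1 UMIs. The 4 mock cells with 10 or more Cxcl9 UMIs held 89.9% of it and had 3509 CPM of macrophage and monocyte markers against 1290 in the rest. The 2 mock cells with 10 or more Cxcl10 UMIs held 88.6% of that gene and had 9813 CPM of these markers against 833 in the rest. The part of such RNA in these ratios was not tested.

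Plasmacytoid dendritic cell-like cells, the main makers of type I interferon, went from 107 to 39.5 CPM for Cxcl9, 2.72-fold lower (2.07 to 3.59), and from 109.9 to 41.4 CPM for Cxcl10, 2.65-fold lower (2.04 to 3.48), where 4.41% of genes were lower and 6.52% higher by 1.5-fold. Under direct marker gates these log2 ratios were -0.45 and -0.54 instead of -1.44 and -1.41, and without the 5 highest cells of each library that of Cxcl10 was -0.28. For Cxcl9, 3 mock and 3 PTIR1 cells held 85.4% and 84.1% of the UMIs. Their macrophage and monocyte markers summed to 13860 and 13838 CPM, against 8772 and 7709 in the rest. Without these cells Cxcl9 stood at 16.5 and 6.68 CPM, below B cell-like cells. The part of such RNA in the result was not tested. Conventional dendritic cell-like cells stood at 64.3 and 75.1 CPM for Cxcl10, a ratio of 1.17 (0.987 to 1.38), but their log2 ratio was -3.86 with the libraries clustered apart and -3.28 under direct marker gates. In CT26 tumour cell-like cells, Cxcl10 stood at 48.2 CPM (45.1 to 51.5) in 350 mock cells and at 20.4 CPM (17.8 to 23.3) in 234 PTIR1 cells, 2.36-fold lower (2.04 to 2.75) against 5.08% of genes lower and 5.8% higher. In the mock library 8 of the tumour cells held 82.9% of it, and in the PTIR1 library 5 cells held 65.9%. Without these cells the levels were 9.17 and 7.15 CPM. The 8 mock cells had a median of 185874 UMIs against 35466.5 in the rest, and 895 against 260 CPM of macrophage and monocyte markers. In the 5 PTIR1 cells these values were 43486 against 39572 UMIs, and 264 against 468 CPM. Cxcl9 in the tumour cells stood at 4.75 and 2.19 CPM, below the 36.2 and 8.86 CPM of B cell-like cells, and its log2 ratio was -1.11, but -0.40 with finer clustering, -2.56 without the 5 highest cells and -3.86 with each cell weighing the same.

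There were 47 mock and 791 PTIR1 fibroblast-like cells. They stood at 89.3 CPM (Cxcl10, 130 UMIs) and 76.8 CPM (1545 UMIs), a ratio of 0.861 (0.719 to 1.04), where 8.53% of genes were lower and 10.9% higher by 1.5-fold, and held 0.487% and 9.74% of the Cxcl10 of their libraries. In the PTIR1 library 24 fibroblast-like cells held 81.7% of it, with 1923 CPM of macrophage and monocyte markers against 833 in the rest. Cxcl9 in fibroblasts rested on 2 mock cells with 96.5% and 1 PTIR1 cell with 78.8% of its UMIs, and without the 5 highest cells of each library its log2 ratio was 0.86 instead of -3.52.

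In NK cell-like and B cell-like cells Cxcl10 stood higher in the PTIR1 library. NK cell-like cells had 18.1 CPM in 452 mock and 61.7 CPM in 549 PTIR1 cells, a ratio of 3.40 (2.72 to 4.29), where 3.08% of genes were lower and 2.42% higher by 1.5-fold or more. In the PTIR1 library 10 NK cell-like cells held 63.5% of it, and without the cells with 10 or more UMIs the levels were 14.9 and 23.0 CPM. Of 5 NK clusters, the one led by Krt83, Tcrg-C4 and Cd160 held 329 of the 425 PTIR1 UMIs and stood at 39.6 and 440 CPM. The 11 macrophage markers summed to 163 and 205 CPM in NK cell-like cells, and none was at 0 in either library. In the 10 PTIR1 cells the macrophage and monocyte markers summed to 2336 CPM, against 2093 in the other NK cell-like cells. In macrophage or monocyte-like cells of that library they summed to 10273 CPM. B cell-like cells had 20.3 and 40.9 CPM, a ratio of 2.02 (1.41 to 2.96) where 5.4% of genes were lower and 6.39% higher, but 1 cell of 85 UMIs held 49.7% of it. That cell had 7956 CPM of macrophage and monocyte markers, and without it the level was 20.8 CPM.

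The receptor was found at its highest levels in CD4 T cell-like, plasmacytoid dendritic cell-like and NK cell-like cells. CD4 T cell-like cells had 107 CPM (81.1 to 137) on 59 UMIs in 137 mock cells, and 76.1 CPM (49.2 to 112) on 25 UMIs in 90 PTIR1 cells. Plasmacytoid dendritic cell-like cells had 78.5 CPM (65.1 to 93.8) and 63.0 CPM (52.7 to 74.8) on 120 and 131 UMIs, and NK cell-like cells 47.7 CPM (42.0 to 54.0) and 34.8 CPM (30.5 to 39.5) on 253 and 240 UMIs. The order was the same in both libraries, and the intervals of CD4 T cell-like and plasmacytoid dendritic cell-like cells overlapped in each. CD8 T cell-like cells, a class of cytotoxic lymphocytes, had 19.7 CPM (12.4 to 29.9) on 22 UMIs in 110 mock cells and 2 UMIs in 21 PTIR1 cells. Conventional dendritic cell-like cells had 3.33 and 4.15 CPM. Most of it lay in the cluster led by Xcr1, a receptor of cross-presenting dendritic cells, where 24 mock and 29 PTIR1 cells had 24.6 and 17.9 CPM on 15 and 12 UMIs, against 0.445 and 0.741 CPM in the 248 and 156 cells led by Cd209a. Macrophage or monocyte-like cells had 0.928 and 0.735 CPM. Neutrophil-like cells, taken as the class that should lack the receptor, had 3.37 and 2.78 CPM on 3 and 5 UMIs.

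Between the libraries the receptor did not reach 1.5-fold in any of the 5 units with at least 50 UMIs, but it did in single clusters in both directions. The ratio in NK cell-like cells was 0.729 (0.609 to 0.874), where 3.08% of genes were lower by 1.5-fold. At 1000 UMIs per cell the log2 ratio in NK cell-like cells was -0.067 instead of -0.46. In CD4 T cell-like cells the ratio was 0.714 (0.428 to 1.16), against 7.41% of genes lower and 6.03% higher, and in plasmacytoid dendritic cell-like cells 0.803 (0.622 to 1.04). Direct marker gates gave a log2 ratio of -1.56 instead of -0.49 in CD4 T cell-like cells. Mixed-lineage clusters had 14.9 and 18.0 CPM and held 14.4% and 33.9% of the Cxcr3 UMIs, with doublet removal unequal between the libraries. The largest of them for the receptor, led by Xcl1, Tbx21 and Ncr1, held 160 of the 254 PTIR1 UMIs in 277 cells and carried ligand RNA too, at 78.5 CPM for Cxcl9 and 185 CPM for Cxcl10. The mixed-lineage cluster led by Cd8a, Trac and Pdcd1 had 14.9 CPM on 52 UMIs in 116 mock cells and 23.8 CPM on 60 UMIs in 88 PTIR1 cells, a ratio of 1.59 (1.08 to 2.36). NK cell-like cells held 38.6% (34.9 to 42.5%) and 32.0% (28.7 to 35.5%) of the receptor's UMIs, plasmacytoid dendritic cell-like cells 18.3% and 17.5%, and CD4 T cell-like cells 9.01% and 3.33%.

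With all UMIs, Cxcr3 was detected in 59.2% and 46.2% of plasmacytoid dendritic cell-like, 30.3% and 26.8% of NK cell-like and 19.0% and 20% of CD4 T cell-like cells. CD4 T cell-like cells, first by level, were thus last by detection, and the median depths were 13019.5 and 12089, 9369 and 10467, and 3922 and 3424 UMIs in the same order. At 1000 UMIs per cell the shares were 6.12% and 7.69%, 3.37% and 3.86%, and 6.67% and 7.35%. Their intervals overlapped, so no order is read from them. Neutrophil-like cells, with medians of 2936 and 2973 UMIs, had a receptor UMI in 1.54% and 1.27% of cells, and in none of 167 and 259 thinned cells, which allows shares of up to 2.18% and 1.41%. Regulatory T cells are marked by Foxp3, and CD4 T cell-like cells with a Foxp3 UMI had 121 CPM (76.0 to 184) of Cxcr3 against 99.4 (70.0 to 137) without in the mock library. In the PTIR1 library the levels were 86.1 (37.2 to 169.7) and 72.1 (42.0 to 115), with overlapping intervals in both.

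Among the NK clusters, that led by Krt83, Tcrg-C4 and Cd160 had the highest receptor level, 106 CPM (79.8 to 137) in 62 mock and 66.9 CPM (49.7 to 88.2) in 78 PTIR1 cells. The cluster led by Gzmc, Gzmd and Klrg1 had 40.5 CPM (32.96 to 49.2) and 27.1 CPM (21.7 to 33.5). The cluster led by Ccl5, Itga2 and Gzma had 40.4 CPM (29.0 to 54.8) and 48.9 CPM (37.9 to 62.2), and the dividing cells led by histone genes 44.2 CPM (33.3 to 57.5) and 24.9 CPM (17.7 to 34.2). The ratios were 0.634 (0.424 to 0.945) in the Krt83-led cluster, 0.670 (0.496 to 0.903) in the Gzmc-led cluster and 0.564 (0.363 to 0.869) in the dividing cells. These intervals did not include 1, whereas that of the Ccl5-led cluster did, with a ratio of 1.21 (0.810 to 1.83).

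NK cell-like cells with a receptor UMI (137 mock, 147 PTIR1) were set against those without (315 and 402). Of 20 listed genes measured in both libraries, 1 was at least 1.5-fold higher in the cells with Cxcr3 in both and 2 were lower, against 0.44% and 0.641% of all 7494 genes measured. Cxcr6, a receptor of tissue-resident lymphocytes, was 5.45-fold (3.37 to 9.13) and 2.20-fold (1.55 to 3.13) higher. Klrg1, a receptor of mature NK cells, had ratios of 0.271 and 0.456, and Havcr2, an inhibitory receptor, of 0.139 and 0.067, on 4 and 3 UMIs in the cells with Cxcr3. The cytotoxic genes Gzma, Gzmb and Prf1 had mock ratios of 0.486, 0.676 and 0.594 and PTIR1 ratios of 0.785, 0.727 and 0.708. Ifng, the gene of interferon gamma, had 0.971 and 1.31. T cell genes stood higher in the cells with the receptor: the 9 T cell markers summed to 1201 against 591 CPM in mock cells and to 1024 against 689 CPM in PTIR1 cells. The 9 NK markers summed to 7593 against 12652 CPM and to 8701 against 10019 CPM. Foxp3 had 20 UMIs in the mock cells with the receptor and 1 in those without, and the ratio of Il7r was 2.56 in that library and 0.951 in the PTIR1 library. The part of T cells in these values was not tested. Cells with the receptor were deeper, at medians of 11137 and 12173 UMIs against 7876 and 9629.5, and the part of depth in these values was not tested.

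The genes that lead from interferon gamma to the ligand genes were in part lower in macrophage or monocyte-like cells of the PTIR1 library. Of 8 listed genes, all 8 were measured and 3 were lower by 1.5-fold or more, none higher, against 3.42% of all genes lower and 3.89% higher in this class, and the median log2 ratio was -0.33 against -0.02 for all genes. Irf1, a transcription factor induced by interferon gamma, went from 112 to 51.9 CPM, 2.16-fold lower (2.002 to 2.33). Socs1, an inhibitor induced by the same route, was 1.55-fold lower (1.39 to 1.73). Ifng itself was at 2.82 and 1.78 CPM, 1.59-fold lower (1.03 to 2.52). These levels were far below those of NK cell-like cells, given further on, and the part of RNA from other cells in them was not tested. The receptor genes Ifngr1 and Ifngr2 had ratios of 1.14 and 0.861. Jak1 and Jak2, the kinases bound to the receptor, both had a ratio of 1.03.

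Of 10 genes of the type I interferon and NF-kB route, 9 were measured and 1 was lower by 1.5-fold or more, against the same 3.42% of all genes, with a median of -0.04. It was Stat2, 1.71-fold lower (1.54 to 1.91). Irf7 had a ratio of 1.008, Nfkb1 of 1.03 and Rela of 1.006. Of 22 genes of macrophage states, 21 were measured, 10 were lower and none was higher by 1.5-fold, against 3.42% and 3.89% of all genes. Ciita, the activator of class II genes, went from 28.1 to 7.48 CPM, 3.75-fold lower (3.099 to 4.58). Iigp1 went from 99.7 to 27.5 CPM, 3.62-fold lower, and Gbp2, a guanylate-binding protein, had a ratio of 0.337. Rsad2, Ifit1 and Isg15 had ratios of 0.906, 0.999 and 0.812. Of 6 other chemokine genes 5 were measured, 1 lower and 2 higher: Cxcl16, the ligand of Cxcr6, was 1.51-fold lower (1.44 to 1.59), while Ccl3 and Ccl4, genes of inflammatory chemokines, were 1.85-fold and 1.51-fold higher. The ratios of this and the preceding paragraph are sums over a class whose mix of clusters differed between the libraries. The part of that mix in them was not tested.

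In the Rsad2-led cluster, where Cxcl10 stayed level, 2 of 7 measured genes of the interferon gamma route were lower, against 4.97% of all genes in that cluster, Socs1 with a ratio of 0.507 (0.435 to 0.588) and Irf1 with 0.575 (0.496 to 0.664). Of the 10 genes of the type I and NF-kB route 1 was lower, Ifnb1, with 12.2 and 7.68 CPM and a ratio of 0.631 (0.372 to 1.04) whose interval included 1. Irf7 stood at 1166 and 1153 CPM, a ratio of 0.989 (0.948 to 1.03). The limit given above for Cxcl10, that cells were placed in this cluster by likeness in antiviral genes, holds for these ratios too. Of 21 measured macrophage state genes 5 were lower and none higher, against 4.97% and 4.08% of all genes, led by Nos2, the inducible nitric oxide synthase, from 83.8 to 21.0 CPM (ratio 0.251, 0.189 to 0.328).

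**Figure D5:**
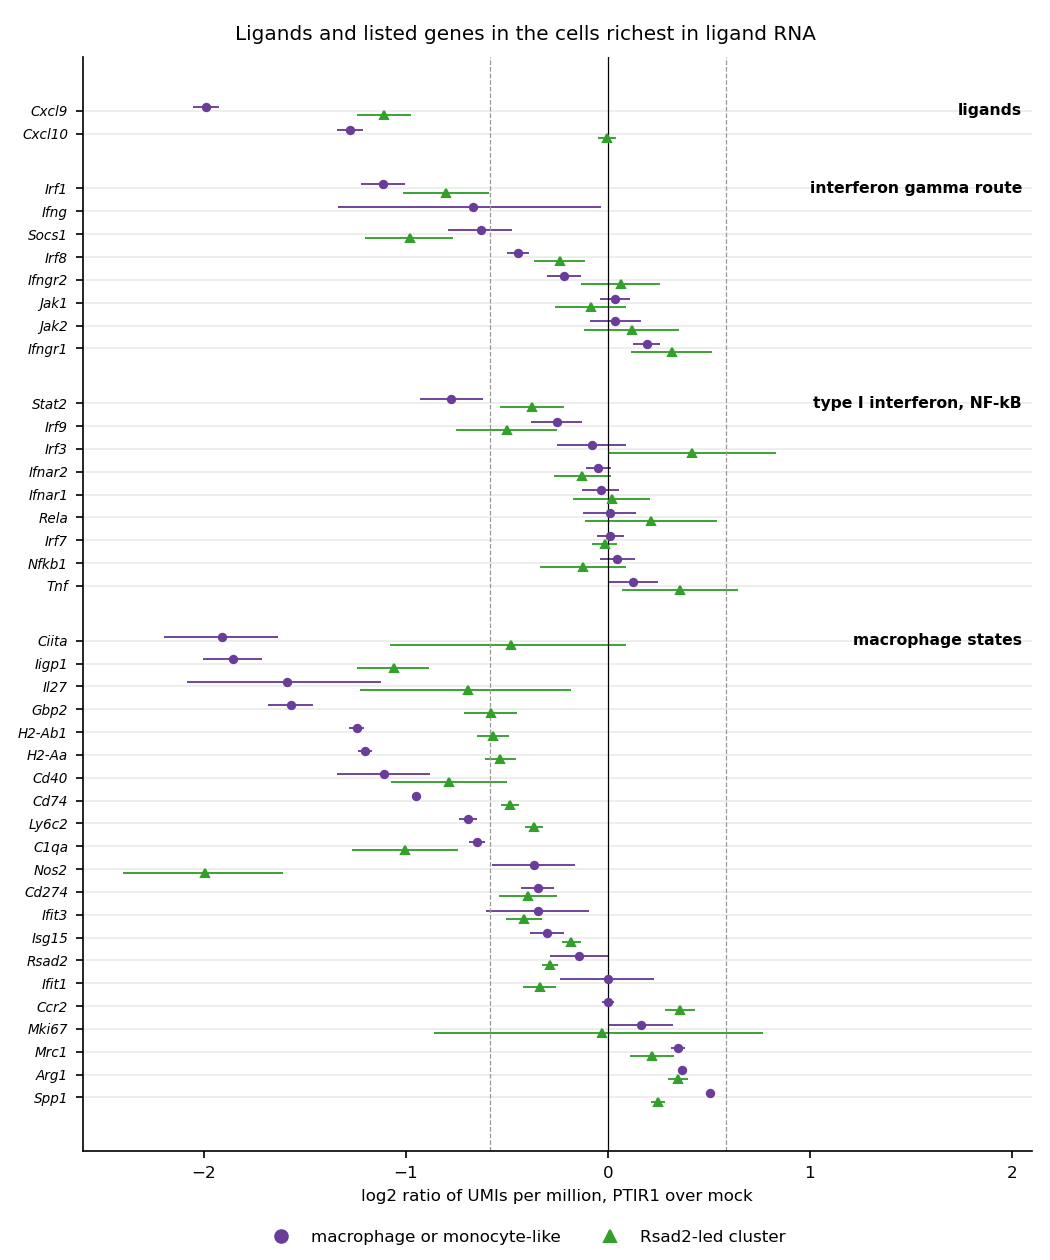
Log2 ratio of CPM, PTIR1 over mock, of the ligands and of listed genes in macrophage or monocyte-like cells (circles) and in the Rsad2-led cluster (triangles), with 95% counting intervals. Dashed lines mark 1.5-fold either way; Irf1, Ciita, Iigp1 and Gbp2 lay past the lower line in macrophage or monocyte-like cells, and Cxcl10 lay at 0.00 in the Rsad2-led cluster.

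On the receptor side the genes of receptor expression, coupling and signalling moved little, whereas some genes of lymphocyte states and trafficking passed 1.5-fold. All 9 genes of receptor expression, coupling and signalling were measured in NK cell-like cells, and none passed 1.5-fold in either direction, with a median of -0.10 against -0.06 for all genes. Tbx21 had a ratio of 0.862 (0.728 to 1.02), Eomes of 0.896 (0.838 to 0.958) and Gnai2, the inhibitory G protein subunit, of 0.935 (0.893 to 0.978). Ifng in NK cell-like cells stood at 97.0 and 108.8 CPM, a ratio of 1.12 (1.001 to 1.26). Of 7 measured genes of other trafficking receptors 1 was lower and 1 higher, against 3.08% of all genes lower and 2.42% higher in this class. The lower one was Itga1, an integrin of tissue-resident cells, from 123 to 55.3 CPM (ratio 0.451, 0.396 to 0.512). Ccr7, the lymph node homing receptor, was higher, from 6.42 to 14.4 CPM (ratio 2.24, 1.502 to 3.41). In CD4 T cell-like cells 7 of the 9 genes of receptor expression and coupling were measured and none passed 1.5-fold. Of 20 genes of lymphocyte states, 19 were measured in NK cell-like cells, with 3 higher and none lower. In CD4 T cell-like cells 16 of them were measured, with 7 lower and 3 higher, against 7.41% of all genes lower and 6.03% higher.

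The genes whose levels were most like each member over the 12 named classes in both libraries (24 values, which share libraries and cells) were ranked by Pearson's r of log2 levels among 11914 genes. The Rsad2-led cluster, with 40.3% and 41.0% of the Cxcl10 UMIs, and the other units without a name were left out. The ranking for Cxcl10 thus lacks the unit with its highest level. For Cxcl9 they were Slamf8 (r = 0.86), Fcgr4 (0.85), Plbd1, Adap2 and Aif1, with Cxcl10 at rank 153 (0.74). For Cxcl10 they were Cd177 (0.82), Nampt (0.82), Treml4, Rtp4 and Atp7a, with Cxcl9 at rank 31. For Cxcr3 they were Sla2 (0.92), S1pr4 (0.90), Atp2b4, Rtn4rl1 and Sytl1, and its r was -0.09 with Cxcl9 and -0.18 with Cxcl10.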

How the data were processed

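Single cells of 2 libraries were measured with the 10x Genomics 3′ kit v3.1, per the labels' protocols. The authors deposited raw UMI counts per gene and barcode, per the file headers; Cell Ranger 5.0.0, Seurat 3.2.3 and the build mm10 are named in the submitters' processing notes. Barcodes under 200 genes or above 10% mitochondrial UMIs were dropped, which removed 1505 mock and 1439 PTIR1 barcodes. Scrublet called 87 PTIR1 cells as doublets, which were removed, but 0 mock cells. In the mock library the 696 top-scoring cells were left out, from an assumed rate of 0.8% for each 1000 cells.

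Both libraries were clustered together on 2000 variable genes without the 4 listed genes, with 30 components, 15 neighbours and Leiden resolution 1. Clusters were named "-like" from at least 3 fixed markers, each in at least 10% of cells, above 2-fold over the median cluster and at 20% or more of the highest cluster. Clusters with markers of another lineage, or with a median depth under 1/3 of that of their libraries and no marker of their own among their 10 top genes, stayed unnamed, and names were rebuilt here because no annotation was used. UMIs were summed per class and scaled to counts per 1e6 UMIs (CPM) of the class. Levels have exact Poisson intervals, shares exact binomial (Clopper-Pearson) intervals, and ratios exact conditional binomial intervals. A gene was measured with 50 UMIs over both libraries and 20 cells in each, and called at 1.5-fold; comparisons of thinned cells with and without a ligand UMI needed 10 UMIs in each library, and those with and without the receptor, on all UMIs, needed 50. Cells were thinned to 1000 UMIs for shares of cells. An upper limit for 0 UMIs used the exact Poisson interval in the figure and the binomial interval for cells.

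The listed genes, the pathway lists and the markers were chosen with earlier results of these data known. All 4 listed genes and the genes of 9 lists were named by rule, as were the 5 genes most like each; the examples given from lists were chosen after their values were seen. Some genes of these lists are not reported here, and the lists' counts and medians leave them out. The code was tested on simulated data. Ratios were recomputed under 10 alternative settings chosen at the start and a few added later. Clustering used scanpy 1.11.5 with igraph 0.11.9, scikit-learn 1.9.0 and anndata 0.12.19. Intervals came from scipy 1.17.1, tables from pandas 2.3.3 and numpy 2.4.6, and plots from matplotlib 3.10.9, all in Python 3.11.15.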

Additional observations from a re-analysis of the deposited data

Results flagged for a closer look

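Cxcl10 stood higher in the PTIR1 library in B cell-like cells, with a ratio of 2.02, and in NK cell-like cells, with a ratio of 3.40, whereas it was lower in the 7 other classes whose interval did not include 1. The difference between classes was not tested. In B cell-like cells 1 cell held 49.7% of the PTIR1 UMIs, and the ratio turned below 1 in 3 of 11 alternatives. In NK cell-like cells the log2 ratio stayed between 0.78 and 1.98 over 12 alternatives.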

How the results depend on the processing

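No paired analysis was possible because each group had 1 library. The main results had 69 values under alternatives, of which 29 moved by less than their interval and 40 by more; 48 of 49 log2 ratios kept their sign, the exception being Cxcr3 in CD4 T cell-like cells (range -1.56 to 0.14). The cause of each change below was not tested. The alternatives that count the Rsad2-led cluster in, leave out the 5 cells with the most UMIs or weigh clusters as in the mock library were chosen after seeing the data. In macrophage or monocyte-like cells the log2 ratio of Cxcl9 was -1.99 and became -2.27 with no doublets removed, -2.09 with at least 500 genes, -1.49 and -1.87 at resolutions 0.5 and 2, -2.07 under gates, -1.76 with each cell weighing the same, -1.87 thinned, -1.84 with the Rsad2-led cluster, -2.32 without the 5 highest cells and -0.65 with the mock weights. That of Cxcl10 was -1.28 and became -0.62 with 20% mitochondrial UMIs, -1.07 with at least 500 genes, -0.15 and -0.36 at resolutions 0.5 and 2, -0.49 with libraries clustered apart, -0.48 under gates, -1.19 thinned, -0.47 with the Rsad2-led cluster, -1.59 without the 5 highest cells and -0.26 with the mock weights. Cxcr3 became -0.067 in NK cell-like cells when thinned and -1.56 in CD4 T cell-like cells under gates. The share of mock Cxcl9 in the macrophage or monocyte-like class was 62.0% with no doublets removed, 72.5% with 20% mitochondrial UMIs, 58.2% under gates, 55.1% thinned and 69.8% with the Rsad2-led cluster. For PTIR1 Cxcl9 it was 60.1% with 20% mitochondrial UMIs, 37.6% under gates and 52.1% with that cluster. For mock Cxcl10 it was 37.5%, 81.8%, 65.6%, 34.1% and 80.0% in the order given for mock Cxcl9, and for PTIR1 Cxcl10 18.5%, 65.7%, 47.2%, 12.4% and 57.1%. Of 152 values for other results 138 kept their sign, and 5 whose reported interval did not include 0 reversed: Cxcl10 in neutrophil-like cells under gates (0.040), Cxcl9 in fibroblast-like cells without the 5 highest cells (0.86), and Cxcl10 in B cell-like cells with 20% mitochondrial UMIs (-0.10), under gates (-0.26) and thinned (-0.47). The other 9 changes of sign were Cxcl10 in the Rsad2-led cluster with no doublets removed (0.043), equal cell weights (0.035), thinning (0.077) and centring on all genes (0.026), Cxcl10 in conventional dendritic cell-like cells clustered apart (-3.86), under gates (-3.28) and without the 5 highest cells (-0.42), Cxcl10 in fibroblast-like cells without the 5 highest cells (0.76) and Cxcr3 in plasmacytoid dendritic cell-like cells thinned (0.11). Some classes, such as the Rsad2-led cluster, plasmacytoid dendritic and CT26 tumour cell-like cells, were not named in some alternatives, which then gave no value. Depth limits the receptor most, with 655 and 750 UMIs in all kept cells.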
